A study of Mus musculus with 36 samples.

Results

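Genes that mark the subfields of the hippocampus were followed in adult mice that carry 2, 1 or 0 intact alleles of *Pogz*, which encodes a chromatin-associated zinc finger protein. The 9 genes were chosen by symbol out of 24421 listed genes: *Wfs1*, *Fibcd1*, *Mpped1* and *Spink8* for field CA1, *Prox1*, *C1ql2* and *Dsp* for the dentate gyrus, and *Bok* and *Nptx1* for field CA3. RNA came from whole hippocampi and cerebella of the same 18 C57Bl/6 mice, 3 females and 3 males of each genotype. Control mice were Pogzfl/fl and carried no Cre. The cKO+/- mice were NesCre/+; Pogzfl/+ and the cKO-/- mice were NesCre/+; Pogzfl/fl, where NesCre is Cre under the *Nestin* promoter, which is active in progenitors of the nervous system. Since both mutant groups carry Cre and the controls do not, the deletion and the transgene cannot be told apart in a comparison with controls. Cells outside the neural lineage, such as blood vessel cells and microglia, keep their *Pogz* alleles in this model.

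Signals enter the hippocampus through the dentate gyrus, whose granule cells send mossy fibres to the pyramidal cells of CA3. These in turn project to the pyramidal cells of CA1, the main output field. Each of these neuron types keeps its own set of genes in the adult brain, and the gene sets also change along the long axis of the hippocampus, from its dorsal to its ventral pole. A whole hippocampus holds all subfields together, so that fewer cells of a type and less RNA per cell cannot be told apart in these data.

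Each hippocampal library held from 17609321 to 45544188 counts and each cerebellar library from 21421850 to 32544929, and levels are given as CPM, the CPM of a gene being its counts relative to the TMM-scaled total of the library. *Pogz* itself lay between 89.0 and 92.8 CPM in the hippocampus of controls, between 74.0 and 80.2 in cKO+/- and between 53.6 and 67.7 in cKO-/- mice, with no overlap. The count of the gene takes in exons outside the floxed part. In the cerebellum, cKO+/- mice lay between 66.4 and 81.5 CPM and cKO-/- mice between 57.0 and 74.0, both below the lowest control at 89.6. The hippocampal library of the cKO-/- female Sample_1160 stood apart, with a median correlation of 0.875 with the other hippocampal libraries against at least 0.976 for each of them. It was left out of the tests given first, and its values stand beside them. The hippocampal library of control Sample_1129 held *Gabra6*, a gene of cerebellar granule cells, at 49.4 CPM against at most 1.09 elsewhere. The cerebellar libraries of Sample_933, Sample_936, Sample_1385 and Sample_1433 held the glutamate transporter gene *Slc17a6* at 59.0, 66.7, 121 and 105 CPM against at most 25.8 in the other cerebellar libraries.

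In control mice, 8 of the 9 genes were higher in the hippocampus than in the cerebellum, where 35.2% of all 14224 genes tested were. Nothing is read from that count, since the genes were chosen as hippocampal ones and *Fibcd1*, *Spink8*, *C1ql2* and *Dsp* passed the filter on low counts only through the hippocampus. Levels between genes are compared per length, as RPKM, which is CPM divided by the exonic length in kilobases. In the hippocampus, *Nptx1*, a secreted pentraxin that clusters glutamate receptors at synapses, led with 189 ± 20.7 RPKM (SD, n = 6), above 98.6% of tested genes. *Mpped1* followed with 75.2 ± 9.39 RPKM, then *Bok* with 64.5 ± 13.5, *Wfs1* with 54.9 ± 16.0, *C1ql2* with 54.8 ± 10.1 and *Fibcd1* with 46.7 ± 5.80 RPKM (SD, n = 6 each). The ranges of neighbours in this order overlapped from *Mpped1* to *Fibcd1*. *Spink8*, at 30.9 ± 3.89 RPKM, lay below all *Fibcd1* values, while its range overlapped that of *Prox1* at 19.1 ± 5.04, which overlapped that of *Dsp* at 13.3 ± 4.0.

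The largest tissue difference among the 9 was that of *Fibcd1*, with 3 to 20 counts in each control cerebellum and a log2 difference of 9.28 (SE 0.21). *Dsp* followed with a log2 difference of 8.96 (SE 0.28, 2 to 17 counts per control cerebellum) and *C1ql2* with 7.99 (SE 0.18, 8 to 21 counts). *Spink8* differed by 6.27 and *Mpped1* by 5.87 on the log2 scale. *Bok*, *Wfs1* and *Prox1* were expressed in both tissues, with log2 differences of 2.73, 2.04 and 1.43. The adjusted p was at most 6.25e-05 for *Mpped1*, *Bok*, *Wfs1* and *Prox1* (edgeR). *Fibcd1*, *Dsp*, *C1ql2* and *Spink8* passed the filter only through the hippocampus, so that their differences are a description. All of these genes were chosen as hippocampal ones, and nothing further is read from the p-values. *Nptx1* was as abundant in the cerebellum, at 194 ± 20.8 RPKM (SD, n = 6), as in the hippocampus, with a log2 difference of 0.050 (SE 0.093, adjusted p = 0.64, edgeR). Its count in a whole hippocampus is read here as that of the tissue, and its place in CA3 cannot be checked without sections.

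**Figure D1:**
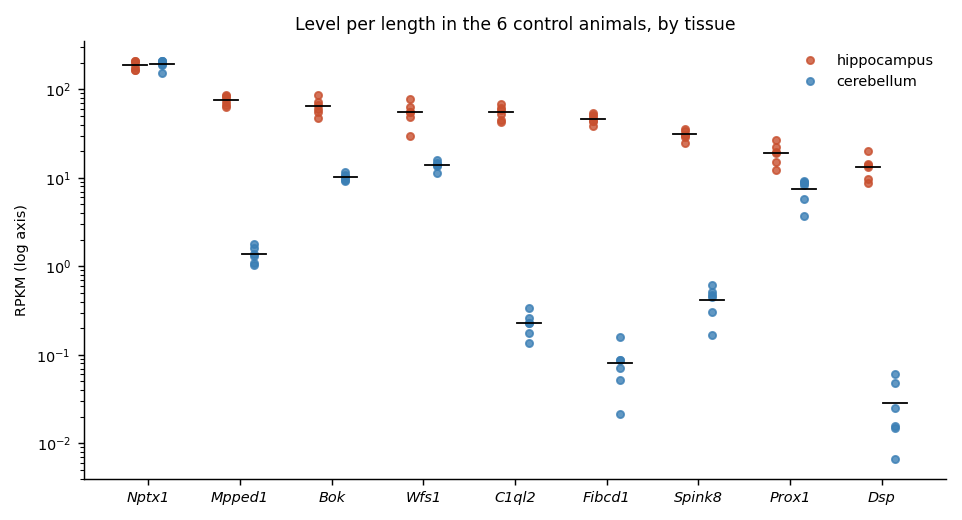
RPKM on a log axis of the 9 genes in the hippocampus and the cerebellum of the 6 control mice, a point per animal, with a line at the mean. The points of *Nptx1* lie at the same height in both tissues, while those of *Fibcd1*, *Dsp*, *C1ql2*, *Spink8* and *Mpped1* lie far lower in the cerebellum.

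To ask how these genes follow *Pogz* dosage, the effect of each allele lost was estimated in the hippocampus with sex as a covariate, over 17 libraries. In this linear fit, *Wfs1* of CA1 and *C1ql2* and *Dsp* of the dentate gyrus were lower with fewer intact alleles, and no member was called as higher. These 3 of 9 genes passed a false discovery rate (FDR) of 0.05, where 4.44% of all 14339 tested genes passed in either direction and 2.35% passed as lower. By subfield, 1 of 4 CA1 genes, 2 of 3 dentate genes and 0 of 2 CA3 genes were called. The median log2 fold change per allele lost was 0.011 for CA1, -0.45 for the dentate gyrus and -0.061 for CA3, against 0.0017 over all tested genes. At an unadjusted p under 0.05 there were 4 of the 9 genes, these 3 and *Nptx1*, against 20.1% of all tested genes.

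**Figure D2:**
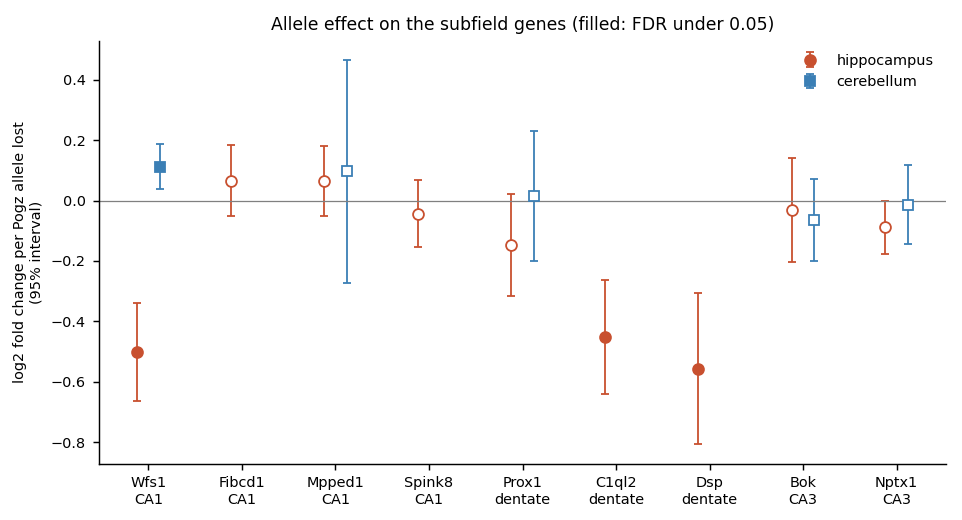
Log2 fold change per *Pogz* allele lost, with its 95% interval, for the 9 genes in the hippocampus (circles, 17 libraries) and, for the 5 that passed the filter on low counts there, in the cerebellum (squares, 18 libraries). Filled symbols passed an FDR of 0.05. *Wfs1*, *C1ql2* and *Dsp* lie below 0 in the hippocampus, and *Wfs1* lies slightly above 0 in the cerebellum.

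*Wfs1* encodes wolframin, a membrane protein of the endoplasmic reticulum that takes part in calcium handling and in the response to misfolded protein, and it labels CA1 pyramidal cells. In the hippocampus, controls ranged from 105 to 278 CPM with a median of 196, and cKO+/- mice from 129 to 157 with a median of 139. The cKO-/- animals Sample_936, Sample_1219, Sample_1371, Sample_1379 and Sample_1385 held 94.6, 96.2, 90.1, 117 and 89.6 CPM, and Sample_1160 held 77.8. These libraries lay below all cKO+/- libraries, which held for *Wfs1* alone of the 9 genes and, without Sample_1160, for 1.03% of tested genes, whereas control Sample_1172, at 105 CPM, lay within the cKO-/- range. The level fell by 0.50 on the log2 scale for each allele lost (SE 0.078, a fold of 0.707, adjusted p = 0.00088, edgeR). Leaving out any 1 animal gave -0.57 to -0.44, each called, and all 18 libraries gave -0.52 (adjusted p = 0.00083).

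The other CA1 genes did not follow *Wfs1*. *Fibcd1*, a membrane receptor for acetylated compounds, ranged from 185 to 258 CPM in controls with a median of 219 and from 225 to 295 in cKO+/- mice with a median of 248. Its cKO-/- values were 285, 313, 237, 228 and 174 CPM for Sample_936, Sample_1219, Sample_1371, Sample_1379 and Sample_1385, on both sides of the controls, and 387 for Sample_1160. The log2 fold change per allele was 0.066, with a 95% interval from -0.051 to 0.18 (adjusted p = 0.53). *Mpped1*, a metallophosphoesterase domain gene, had medians of 248 CPM in controls and 297 in cKO+/- mice, with overlapping ranges of 204 to 279 and 258 to 328. The cKO-/- animals held 284, 275, 283, 283 and 208 CPM, in the same order, and Sample_1160 held 282. Its log2 fold change was 0.065 (95% interval -0.050 to 0.18, adjusted p = 0.53). *Spink8*, a secreted inhibitor of serine proteases, stayed between 15.6 and 24.4 CPM in all 17 libraries, and its log2 fold change was -0.044 (95% interval -0.16 to 0.067, adjusted p = 0.67). In Sample_1160 *Spink8* reached 81.9 CPM, and over all 18 libraries its log2 fold change was 0.23 (adjusted p = 0.42).

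*Dsp* encodes desmoplakin, which ties desmosomes to intermediate filaments and is a label of dentate granule cells in the mouse brain. Controls ranged from 82.9 to 191 CPM with a median of 131, and cKO+/- mice from 36.4 to 109 with a median of 64.9. The cKO-/- animals Sample_936, Sample_1219, Sample_1371, Sample_1379 and Sample_1385 held 73.9, 57.2, 49.9, 50.4 and 68.6 CPM, and Sample_1160 held 23.6. All 6 cKO-/- libraries, with Sample_1160 included, lay below all 6 controls, as was the case for 1.22% of tested genes. The cKO+/- animals lay on both sides of the lowest control. The fitted slope was -0.56 on the log2 scale per allele lost (SE 0.12, a fold of 0.680, adjusted p = 0.012, edgeR). This slope was between -0.63 and -0.48 with each animal left out in turn, each called, and -0.61 with all 18 libraries (adjusted p = 0.016). Between cKO-/- and cKO+/- mice the log2 difference was -0.19 (95% interval -0.68 to 0.30), so that a fall with the second allele was not shown.

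*C1ql2* encodes a secreted C1q-like protein that granule cells release at mossy fibre synapses, where it takes part in placing kainate receptors. Controls ranged from 84.5 to 138 CPM with a median of 111, and cKO+/- mice from 55.1 to 113 with a median of 89.2. The cKO-/- animals held 71.9, 54.2, 41.9, 54.5 and 68.5 CPM, in the order given for *Dsp*. These 5 libraries lay below all 6 controls, which held for *C1ql2* and *Dsp* among the 9 genes and for 2.12% of all tested genes. The level fell by 0.45 on the log2 scale for each allele lost (SE 0.090, a fold of 0.731, adjusted p = 0.0073, edgeR), and the call was kept with each animal left out in turn. Sample_1160 held 109 CPM, inside the control range, and with all 18 libraries the estimate of -0.36 was no longer called (adjusted p = 0.089). In that fit 2 of the 9 genes were called, *Wfs1* and *Dsp*, against 1.72% of tested genes.

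*Prox1*, the homeobox gene that sets and maintains granule cell identity, was not called. It ranged from 50.6 to 109.6 CPM in controls with a median of 80.3, from 38.6 to 70.1 in cKO+/- mice with a median of 60.8, and held 67.7, 59.5, 64.2, 63.0 and 72.3 CPM in the 5 cKO-/- libraries. The cKO-/- values fell inside the control range. The log2 fold change per allele was -0.15 with a 95% interval from -0.32 to 0.020 (adjusted p = 0.31). Sample_1160 stood far below, at 10.1 CPM.

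The stretches before the start sites of the 3 called genes are shown because these genes fell together with allele loss. The tables' starts and ends of these 3 genes and of *Nptx1* are those of RefSeq on GRCm38.p6, the other 5 members differ from RefSeq at 1 or both ends, and the labels name the build mm9. *Wfs1* spans 36966104 to 36988982 of chromosome 5 on the minus strand, *C1ql2* spans 120340582 to 120343174 of chromosome 1 on the plus strand, and *Dsp* spans 38151294 to 38198577 of chromosome 13 on the plus strand. None of the 9 genes shares exonic bases with another listed gene. The 250 bases before each RefSeq start are given from 5′ to 3′ on the strand of the gene, at chr5:36988983-36989232 for *Wfs1*, chr1:120340332-120340581 for *C1ql2* and chr13:38151044-38151293 for *Dsp*. Capitals mark exact matches, on either strand, to the GC box GGGCGG or to the CCAAT box.
Wfs1: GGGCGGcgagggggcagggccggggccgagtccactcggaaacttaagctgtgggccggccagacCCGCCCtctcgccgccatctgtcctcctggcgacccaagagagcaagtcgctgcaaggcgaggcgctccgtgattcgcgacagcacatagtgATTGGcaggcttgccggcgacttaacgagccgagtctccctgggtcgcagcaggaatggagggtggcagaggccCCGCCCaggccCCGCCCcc
C1ql2: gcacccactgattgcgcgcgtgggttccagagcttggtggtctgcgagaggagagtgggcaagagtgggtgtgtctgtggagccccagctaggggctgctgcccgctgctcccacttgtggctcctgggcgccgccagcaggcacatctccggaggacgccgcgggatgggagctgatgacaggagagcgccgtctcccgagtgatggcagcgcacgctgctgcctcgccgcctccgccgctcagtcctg
Dsp: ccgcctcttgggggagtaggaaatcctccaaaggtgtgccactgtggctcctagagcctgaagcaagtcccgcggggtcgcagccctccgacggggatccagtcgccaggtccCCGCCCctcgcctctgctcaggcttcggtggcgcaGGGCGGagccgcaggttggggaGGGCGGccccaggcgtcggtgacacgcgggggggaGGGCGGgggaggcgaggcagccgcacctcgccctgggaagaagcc

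*Wfs1* and *Dsp* each hold 4 GC boxes in this window and *C1ql2* holds 0, where 32.7% of 32841 such windows in RefSeq hold at least 1. The CCAAT box occurs 1 time in *Wfs1* and in 33.9% of all windows. No match was found in the 3 windows to the TATA box TATAAA, the E-box CACGTG or the cAMP response element TGACGTCA, which 12.4%, 6.02% and 1.55% of all windows hold. The GC content was 69.6% for *Wfs1*, 68.8% for *C1ql2* and 72.4% for *Dsp*, above that of 90.2%, 89.0% and 93.6% of the windows. These matches describe letters and say nothing of binding.

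In CA3, *Bok*, a BCL2 family member that binds inositol trisphosphate receptors, ranged from 67.4 to 123 CPM in controls with a median of 90.3 and from 56.9 to 106 in cKO+/- mice with a median of 85.2. The cKO-/- animals Sample_936, Sample_1219, Sample_1371, Sample_1379 and Sample_1385 held 88.1, 92.2, 78.7, 69.7 and 116 CPM, within the control range. The log2 fold change per allele was -0.032 (95% interval -0.20 to 0.14, adjusted p = 0.86). *Nptx1* ranged from 879.6 to 1114 CPM in controls with a median of 1013 and from 731 to 1069.7 in cKO+/- mice with a median of 903. Its cKO-/- values were 992, 972, 802, 848 and 846 CPM, below the control range in 3 of 5 libraries. The log2 fold change was -0.089 (95% interval -0.18 to -0.0012) and did not pass the FDR (adjusted p = 0.24). Sample_1160 held 275 CPM of *Bok* and 498 of *Nptx1*, outside all other libraries for both.

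**Figure D3:**
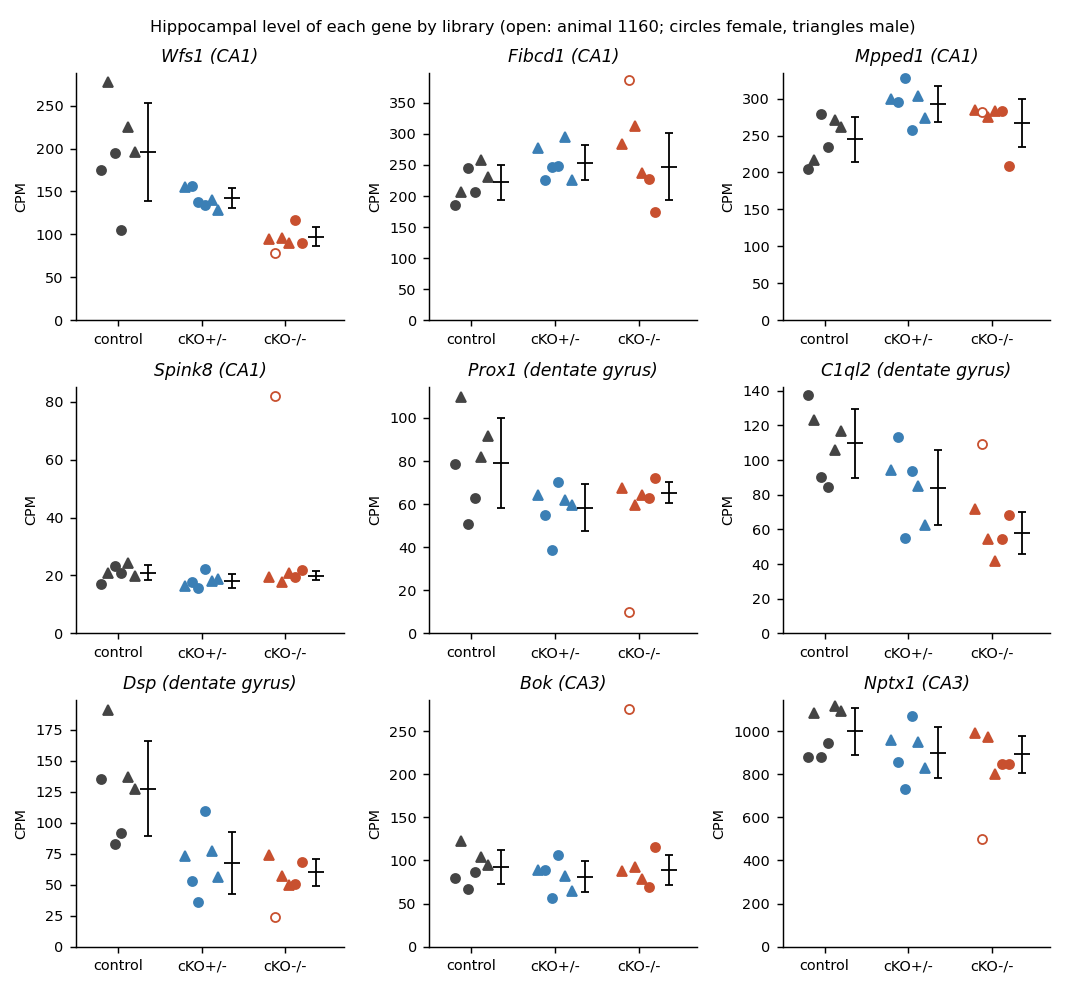
CPM of each of the 9 genes in the 18 hippocampal libraries by genotype, circles for females and triangles for males, with the mean and SD (bars) over all libraries except that of Sample_1160, which is drawn open. The cKO-/- points of *C1ql2* and *Dsp* other than Sample_1160 lie below all controls, and Sample_1160 lies apart for *Spink8*, *Prox1*, *Bok* and *Nptx1*.

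The genotypes were also compared as groups in 1 fit, in which both mutant groups share the controls. Between cKO-/- mice and controls the same 3 of 9 genes passed, against 4.87% of tested genes. *Wfs1* was lower by a log2 fold change of -1.01 (SE 0.16, adjusted p = 0.0012), *Dsp* by -1.09 (SE 0.24, adjusted p = 0.013) and *C1ql2* by -0.91 (SE 0.18, adjusted p = 0.0083). With Sample_1160 included, *C1ql2* stood at -0.73 and was not called (adjusted p = 0.11). Between cKO+/- mice and controls, 0 of 9 genes passed with edgeR, against 5 of all tested genes (0.0349%). At an unadjusted p under 0.05 there were 6 of the 9 genes, against 10% of all tested genes. Of these, *Wfs1*, *Spink8*, *Prox1*, *C1ql2* and *Dsp* were lower in cKO+/- mice, and *Mpped1* was higher, by a log2 fold change of 0.26. DESeq2, which called more of all tested genes in this contrast than edgeR, called 1 of the 9, *Dsp*, with a log2 fold change of -0.90 (adjusted p = 0.048).

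Departure from a midpoint in the single-copy mice was not tested. For *Dsp* the cKO+/- estimate was -0.90 (SE 0.22, edgeR), and for *Prox1* the cKO+/- and cKO-/- estimates were -0.43 (SE 0.14) and -0.28 (SE 0.15). For *Wfs1* and *C1ql2*, the cKO+/- estimates were -0.44 (SE 0.15) and -0.38 (SE 0.17). The direct contrast of cKO-/- with cKO+/- mice, chosen after these values were seen, called 0 of 9 genes with edgeR, against 0.718% of tested genes. At an unadjusted p under 0.05 there were 2 of the 9 genes, near the share of 18.1% among all tested genes. These were *Wfs1*, with a log2 difference of -0.56 (95% interval -0.89 to -0.23), and *C1ql2*, with -0.53 (95% interval -0.91 to -0.14). The difference was -0.19 for *Dsp* (95% interval -0.68 to 0.30) and 0.15 for *Prox1* (95% interval -0.16 to 0.46).

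The cerebellum served as a contrast. Of the 9 genes, 5 passed the filter on low counts there, and *Wfs1* was called in the opposite direction to the hippocampus, against 13.7% of 14027 tested genes called. Controls ranged from 40.3 to 55.9 CPM with a median of 50.5, cKO+/- mice from 51.1 to 60.7 with a median of 52.6, and cKO-/- mice from 50.8 to 65.7 with a median of 56.4, so that the groups overlapped. *Wfs1* rose by a log2 fold change of 0.11 per allele lost (SE 0.036, adjusted p = 0.043, edgeR). The call was kept in 7 of 18 fits that left out 1 animal, and was lost without any of Sample_1129, Sample_1172, Sample_1190, Sample_933, Sample_938, Sample_1176, Sample_1189, Sample_936, Sample_1371, Sample_1379 and Sample_1385, the adjusted p without Sample_1385 being 0.11. Without the 4 cerebellar libraries rich in *Slc17a6* it was 0.097 (adjusted p = 0.19). Between cKO-/- mice and controls, where 12.7% of tested genes were called, 0 of the 5 were called with edgeR; *Wfs1* stood at 0.22 (adjusted p = 0.052; 0.032 with DESeq2), the 1 gene of the 5 under an unadjusted p of 0.05, as 29.8% of all tested genes were.

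*Mpped1*, *Prox1*, *Bok* and *Nptx1* were not called in the cerebellum. Their log2 fold changes per allele were 0.096 (SE 0.18), 0.015 (SE 0.10), -0.064 (SE 0.065) and -0.014 (SE 0.063). *Fibcd1*, *Spink8*, *C1ql2* and *Dsp* stayed at or below 1 CPM in most cerebellar libraries. The highest cerebellar values of *Fibcd1* and *C1ql2*, 5.50 and 2.0 CPM, both came from the *Slc17a6*-rich library of Sample_1385. The highest values of *Dsp*, 3.61 and 3.55 CPM, came from Sample_1433 and Sample_936, which belong to the same 4 libraries.

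The difference of the allele effect between the tissues was tested over both. Of the 5 members that passed the filter on low counts in both tissues, it was called for *Wfs1*, against 1.65% of 14852 tested genes. For *Wfs1* the hippocampal effect was lower than the cerebellar one by a log2 value of -0.62 (SE 0.086, adjusted p = 8.57e-05, edgeR), and without the libraries rich in *Slc17a6* or *Gabra6* it was -0.62 (adjusted p = 0.00092). *Fibcd1*, *Spink8*, *C1ql2* and *Dsp* entered this fit through their hippocampal counts, so that their values are given as a description and no difference between the tissues is drawn from them. *C1ql2*, at a median of 0.454 CPM in the control cerebellum and 0.719 in that of cKO-/- mice, had a value of -0.93 (SE 0.22, adjusted p = 0.019), which was -0.68 without those libraries (adjusted p = 0.14). *Dsp* had a value of -1.29 (SE 0.38, adjusted p = 0.076). For the other 6 genes the adjusted p was at least 0.42.

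Few partners of these genes were called. Of 5 genes of the endoplasmic reticulum stress response around *Wfs1*, *Hspa5*, *Atf6*, *Xbp1*, *Ddit3* and *Cisd2*, none was called and the median log2 fold change was -0.061. Of 5 further desmosome genes, *Jup*, *Pkp2*, *Pkp4*, *Dsg2* and *Dsc2*, none was called either, with a median of -0.041. The relatives and receptor of *C1ql2* gave 0 calls among the 3 tested, *C1ql1*, *C1ql3* and the receptor gene *Adgrb3*. Of the pentraxin partners, *Nptx2* stood at -0.18 (adjusted p = 0.30) and the receptor gene *Nptxr* at -0.26 (adjusted p = 0.58). *Nptxr* ranged from 73.3 to 97.0 CPM in controls and from 34.7 to 110.9 in cKO+/- mice with a median of 87.3. In the cKO-/- animals Sample_936, Sample_1219, Sample_1371, Sample_1379 and Sample_1385 it held 93.4, 126, 4.0, 37.3 and 31.7 CPM, and in Sample_1160 it held 5.36. The cKO-/- values of *Nptxr* lay far below the controls in 4 animals and within or above their range in the other 2. The paralogs *Prox2* and *Mpped2* were not called.

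Of 7 genes of the BCL2 family and the inositol trisphosphate receptors that *Bok* binds, *Bcl2*, which opposes cell death, was higher by a log2 fold change of 0.15 per allele lost (SE 0.042, adjusted p = 0.042). It ranged from 12.7 to 14.8 CPM in controls, from 11.5 to 17.1 in cKO+/- mice and from 15.3 to 18.7 in the 5 cKO-/- libraries. Its call was kept in 6 of 17 fits that left out 1 animal, those without Sample_1129, Sample_938, Sample_1120, Sample_1176, Sample_1433 or Sample_936. It was lost with Sample_1160, at 8.24 CPM, included (0.090, adjusted p = 0.49). The other 6 genes, *Bax*, *Bak1*, *Mcl1*, *Bcl2l1*, *Itpr1* and *Itpr2*, were not called.

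Among further genes of the subfields, chosen with earlier results known, at most 2 genes of a list passed the test. Of all tested genes, 4.44% passed in either direction. Of 3 other CA1 genes, *Lefty1*, a secreted inhibitor of Nodal signalling, was lower, from 9.73 to 19.6 CPM in controls, 7.35 to 13.7 in cKO+/- and 5.13 to 10.03 in the 5 cKO-/- libraries. Its log2 fold change per allele was -0.55 (SE 0.093, adjusted p = 0.0019), and -0.40 with Sample_1160, at 16.3 CPM, included (adjusted p = 0.14). *Pou3f1* stood at -0.22 (adjusted p = 0.13), and *Nov* was not called.

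Of 7 other dentate genes, 1 fell and 1 rose. *Pdyn*, the precursor of the dynorphin opioid peptides, ranged from 16.1 to 23.5 CPM in controls and from 9.99 to 17.2 in cKO+/- mice. In the 5 cKO-/- libraries it held 7.13 to 10.6 CPM, all below the controls, as was the case for 2.12% of tested genes. It fell by 0.58 on the log2 scale for each allele lost (SE 0.070, adjusted p = 7.70e-05), and by 0.58 with all 18 libraries. *Tdo2*, an enzyme that breaks down tryptophan, rose by 0.42 per allele (SE 0.099, adjusted p = 0.023). Its control libraries held 7.05 to 12 CPM and its cKO-/- libraries 13.5 to 20.9, with cKO+/- mice between 6.55 and 15.4. The *Tdo2* call was lost without Sample_1371 (0.38, adjusted p = 0.075), Sample_1379 (0.41, adjusted p = 0.060) or Sample_1385 (0.36, adjusted p = 0.067). The remaining dentate genes, *Lct*, *Trpc6*, *Dock10*, *Plk5* and *Calb1*, were not called, with *Lct* at -0.31 (SE 0.14, adjusted p = 0.22).

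Of 5 other CA3 genes, the cadherin gene *Cdh24* was lower by -0.33 per allele (SE 0.072, adjusted p = 0.015), a call lost without Sample_1379 (-0.31, adjusted p = 0.051). *Grik4*, *Iyd*, *Pvrl3* and *Galnt3* were not called. Of 5 genes of CA2, the small field between CA1 and CA3, *Cacng5*, which encodes an auxiliary protein of AMPA receptors, was lower by -0.41 (SE 0.086, adjusted p = 0.011). It held 14.9 to 21.5 CPM in controls and 6.89 to 13.8 in cKO+/- mice, with no overlap. All cKO+/- libraries lay below all controls for 0.209% of tested genes. In the 5 cKO-/- libraries *Cacng5* held 9.32 to 12.8 CPM. *Rgs14* and *Amigo2* stood at -0.20 and -0.24 (adjusted p = 0.074 and 0.094), and *Pcp4* and *Map3k15* were not called. Of the mossy cell genes, the dopamine receptor gene *Drd2*, at 1.09 to 2.34 CPM in the 17 libraries, was lower by -0.29 (SE 0.081, adjusted p = 0.049) and *Calb2* was not called. The *Drd2* call was kept in 4 of 17 fits, those that left out Sample_1155, Sample_938, Sample_1189 or Sample_1433.

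**Figure D4:**
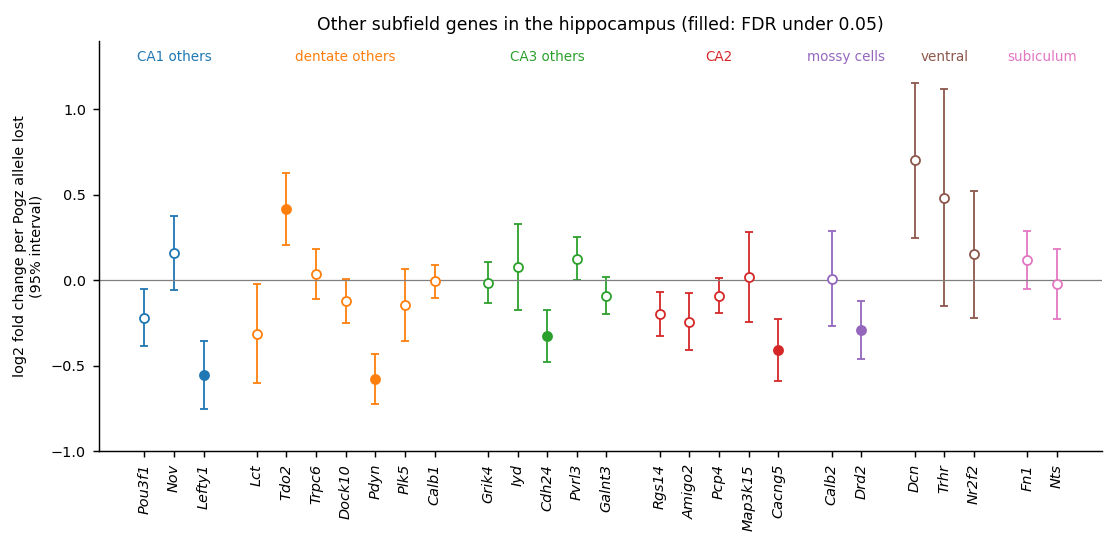
Log2 fold change per *Pogz* allele lost, with its 95% interval, of other subfield genes and of ventral and subiculum genes in 17 hippocampal libraries, filled where the FDR was under 0.05. *Lefty1*, *Pdyn*, *Cdh24*, *Cacng5* and *Drd2* lie below 0 and *Tdo2* above 0, and the ventral genes *Dcn* and *Trhr* carry the widest intervals.

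Genes of the ventral pole were read beside these results. Of the 3 ventral genes *Dcn*, *Trhr* and *Nr2f2*, 0 were called with edgeR in the fit per allele lost, with a median log2 fold change of 0.48. Between cKO-/- mice and controls, 1 of the 3 was called as higher with edgeR, against 4.87% of tested genes called. The median log2 fold change of the list was 0.89 there, and 1.39 between cKO+/- mice and controls, where 0 were called. Their summed level ranged from 18.7 to 84.8 CPM in controls, from 58.9 to 149.8 in cKO+/- and from 57.0 to 137 in the 5 cKO-/- libraries, and each of the 3 had counts in every library. *Dcn*, which encodes the proteoglycan decorin, held 6.92 to 41.0 CPM in controls, 32.2 to 88.1 in cKO+/- mice and 32.8, 51.3, 89.7, 86.6 and 56.4 CPM in the cKO-/- animals Sample_936, Sample_1219, Sample_1371, Sample_1379 and Sample_1385. Its log2 fold change was 0.70 (SE 0.21, adjusted p = 0.073; 0.021 with DESeq2). Control Sample_1155 had the lowest *Dcn* and the highest *Dsp* and *Wfs1*, while cKO+/- Sample_1120, with the lowest *Dsp* and *C1ql2* of its group, held 74.4 CPM of *Dcn*. Across the 17 hippocampal libraries, *Dcn* had Pearson's r of -0.90 with *Dsp*, -0.71 with *C1ql2* and -0.69 with *Wfs1*. Among the genes not called, r was -0.76 with *Prox1* and *Nptx1*, -0.65 with *Bok*, -0.37 with *Spink8*, 0.19 with *Fibcd1* and 0.53 with *Mpped1*. For *Trhr* and *Nr2f2*, r was -0.80 and -0.78 with *Dsp*, -0.57 and -0.58 with *C1ql2* and -0.49 and -0.45 with *Wfs1*. With *Prox1* and *Bok*, which were not called, *Trhr* had r of -0.80 and -0.78 and *Nr2f2* r of -0.86 and -0.82. Genotype is shared by both genes in these values. Within controls, Sample_1170 and Sample_1172 had the highest *Dcn*, 38.9 and 41.0 CPM, and the lowest *Dsp* and *C1ql2*. In the cerebellum, the summed level of the 3 ventral genes had a median of 45.3 CPM in controls, against 45.2 in the control hippocampus. Of the 2 tested there, 1 was called as higher per allele lost, where 7.11% of tested genes were. Mean cerebellar *Dcn* was 27.0, 34.3 and 42.7 CPM (SD 5.02, 7.22 and 12.9) in controls, cKO+/- and cKO-/- mice. These genes are thus not particular to the ventral hippocampus. The part of their hippocampal levels in the results for *Wfs1*, *C1ql2* and *Dsp* was not tested.

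**Figure D5:**
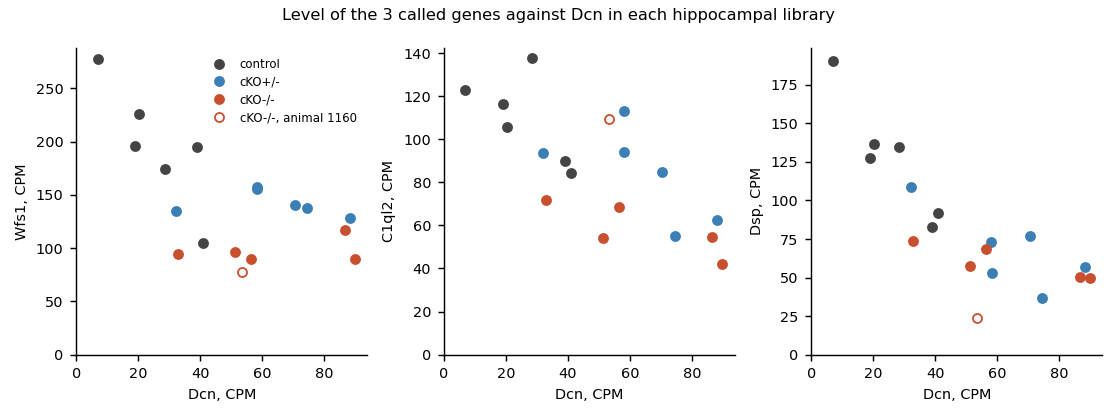
CPM of *Wfs1*, *C1ql2* and *Dsp* against CPM of *Dcn* in the 18 hippocampal libraries, coloured by genotype, with Sample_1160 open. The 4 libraries with the most *Dcn* hold 36.4 to 56.6 CPM of *Dsp*, controls lie at 41.0 CPM of *Dcn* or less, and all cKO-/- points of *Wfs1* lie below those of cKO+/- mice.

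Markers of other cell types and regions moved in places beside these results. Of 3 endothelial genes, *Pecam1* was higher by 0.27 per allele (adjusted p = 0.048), and their summed level ranged from 52.3 to 72.4 CPM in controls, 45.2 to 90.3 in cKO+/- and 70.3 to 102 in cKO-/- libraries. The *Pecam1* call was kept in 5 of 17 fits, those without Sample_1120, Sample_1176, Sample_1433, Sample_936 or Sample_1219. Of 4 astrocyte genes, 2 had values below 0 and the median was 0.036, while the water channel gene *Aqp4* was higher by 0.35 (adjusted p = 0.0039, and 0.24 with all 18 libraries), with list sums of 1113 to 1487, 1307 to 1473 and 1225 to 1610 CPM over the 3 genotypes. Of 3 thalamic genes, *Prkcd* was lower by -0.44 (adjusted p = 0.038), with sums of 55.2 to 74.9, 38.7 to 63.7 and 41.4 to 53.2 CPM. The *Prkcd* call was lost without Sample_1129, Sample_1155, Sample_1190, Sample_1192, Sample_933, Sample_1219, Sample_1371 or Sample_1379, with the highest adjusted p at 0.091. None of the genes of excitatory forebrain neurons, inhibitory neurons, oligodendrocytes, microglia, choroid plexus, neocortex, striatum and septum or subiculum was called. The summed choroid plexus genes ranged from 28.1 to 4779.6 CPM in controls, from 16.6 to 641 in cKO+/- and from 19.2 to 4808 in the 5 cKO-/- libraries. Of the cerebellar granule and Purkinje cell genes, *Neurod1*, *Car8* and *Calb1* were tested and not called. The part of these levels in the members' results was not tested.

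Across the 17 hippocampal libraries, the dentate genes and the CA3 genes varied together, as genes of different subfields also did, and the CA1 genes mostly did not. Pearson's r between log2 levels, given as a description with genotype and library shared by both genes, ranged from -0.34 to 0.84 over the 10 pairs within a subfield and from -0.66 to 0.80 over the 26 pairs between subfields. In the dentate gyrus, *Prox1* and *Dsp* had r = 0.84, *C1ql2* and *Dsp* r = 0.79 and *Prox1* and *C1ql2* r = 0.54, and in CA3 *Bok* and *Nptx1* had r = 0.73. Across subfields, *Dsp* and *Nptx1* had r = 0.80 and *Prox1* and *Bok* r = 0.77. In CA1, *Fibcd1* and *Mpped1* had r = 0.76, while *Wfs1* had r between -0.12 and 0.13 with the other CA1 genes and r = 0.76 with *C1ql2*. With the genotype means taken out, *Wfs1* and *C1ql2* had r = 0.36, the dentate pairs had r from 0.60 to 0.89, *Bok* and *Nptx1* had r = 0.74, and *Fibcd1* and *Mpped1* had r = 0.72. *Mpped1* ran against the dentate and CA3 genes, with r from -0.66 to -0.26. The tested genes outside the 9 whose pattern was most like the mean of the dentate genes were *Anxa11* (r = 0.96, Spearman's rho 0.95), *Dgat2* (r = 0.96, rho 0.95) and *AI593442* (r = 0.94, rho 0.88). For CA1 they were *8430419L09Rik* (r = 0.88), *Extl1* (r = 0.84) and *Chst12* (r = 0.81), and for CA3 *Dlg3* (r = 0.93), *Skida1* (r = 0.92) and *Cap2* (r = 0.91), each over 17 libraries.

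The allele effect was compared between females and males in the hippocampus, and it was called for 0 of 9 genes and for 0% of all 14339 genes with edgeR. At an unadjusted p under 0.05 there was 1 of the 9 genes, *Wfs1*, against 5.37% of all genes, with a male minus female difference in the effect of -0.36 per allele (SE 0.13, adjusted p = 0.79).

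All controls have numbers within the range from Sample_1120 to Sample_1219, which also holds the cKO+/- animals Sample_1120, Sample_1176 and Sample_1189 and the cKO-/- animals Sample_1160 and Sample_1219. The labels do not say what the numbers stand for. With a covariate for the animals outside this range, *Wfs1* stayed at -0.53 and was called (adjusted p = 0.029), *C1ql2* stood at -0.53 (adjusted p = 0.064) and *Dsp* at -0.47 (adjusted p = 0.51), and 68 genes were called in all. Among the animals inside the range, without Sample_1160, the estimates were -0.53, -0.52 and -0.67 for *Wfs1*, *C1ql2* and *Dsp*, none of the 9 genes was called (adjusted p = 0.27, 0.25 and 0.40) and 27 genes were called in all. That subset holds 1 cKO-/- library. Of the other subfield genes, *Pdyn* was called with the covariate, and *Lefty1*, *Tdo2*, *Cdh24*, *Cacng5* and *Drd2* were not.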

How the data were processed

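Poly(A) RNA of hippocampi and cerebella of the same 18 mice was sequenced as 43 bp paired-end reads. The deposited values are whole-number counts per gene, which the authors made with STAR (250a, per the submitters' processing notes, which name build mm9) without normalization; the deposited exon lengths gave RPKM. The use of strand and the treatment of reads that map to several places are not given in the sources used here. The tables' gene positions lie at the GRCm38.p6 genes, from which promoter sequences and motif shares were taken (RefSeq; 7 of 9 members had an entry). A fit on all 18 hippocampal libraries was the alternative to that without Sample_1160, since the study left out 1 RNA sample that it does not name.

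With edgeR 4.0.16 (R 4.3.3), genes above 1 CPM in at least 6 of 18 libraries were tested with TMM scaling and the quasi-likelihood F-test (legacy form), on a model of sex and *Pogz* dosage (2, 1 or 0 intact alleles) and Benjamini-Hochberg adjustment over all tested genes at an FDR of 0.05. Log2 fold changes are per allele lost. Standard errors and 95% intervals were taken from the F statistic. The tissue comparison and its interaction were fitted without a block, although numbers in the labels tie both tissues to 1 animal: deviations from group means had a median correlation of 0.26 between an animal's tissues, from -0.14 to 0.43 (15 of 17 animals above 0.1). Other settings were DESeq2 1.42.0, its size factors in edgeR, all genes without the CPM filter, no sex term, the bias-adjusted fit, a covariate for animal numbers, the animal as a replicate block and each animal left out.

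The members and lists were chosen with earlier results of these data known. Named are the 9 members, the list genes called at the FDR and up to 2 others a list, and for each subfield the 3 tested genes most correlated with its mean; others are named as list members without values. A further gene of the CA1 list is not reported here. The script was tested on simulated data. Between 17609321 and 45544188 counts per library leave genes near 1 CPM with few counts.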

Additional observations from a re-analysis of the deposited data

Results flagged for a closer look

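Among 54 groups of 6 libraries (9 genes, 3 genotypes, 2 tissues), 9 held a library far from the others by Dixon's criterion, which flags about 1 in 20 groups by chance. Of these, 3 came from the hippocampal cKO-/- library of Sample_1160: *Spink8* at 81.9 CPM against at most 22.1 in the other cKO-/- libraries, *Bok* at 275 against at most 116, and *Prox1* at 10.1 against at least 59.5. In the cKO-/- hippocampus, *Mpped1* was lowest in Sample_1385, at 208 CPM against at least 275.

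In the cerebellum, the cKO-/- library of Sample_1385 was highest for *Fibcd1*, at 5.50 CPM against at most 0.714, and for *C1ql2*, at 2.0 against at most 0.799. Sample_936 was highest for *Dsp* among cKO-/- mice, at 3.55 CPM against at most 0.791. Sample_1120 was highest for *Wfs1* among cKO+/- mice, at 60.7 CPM against at most 53.3. Control Sample_1190 was lowest for *Nptx1*, at 815 CPM against at least 999.

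The allele effect differed between the tissues for *Wfs1*, by -0.62 (hippocampus minus cerebellum, adjusted p = 8.57e-05, edgeR), and the fit gave -0.93 for *C1ql2* (adjusted p = 0.019). *C1ql2* did not pass the filter on low counts in the cerebellum, and without the libraries that carry genes of another region its value was -0.68 (adjusted p = 0.14), so that no difference between the tissues is drawn from it.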

How the results depend on the processing

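In the hippocampus 3 members were called, and leaving out any 1 of 17 animals, other size factors, no filter, no sex term, the bias-adjusted fit and DESeq2 also gave 3. The covariate for animals outside Sample_1120 to Sample_1219 left 1 member called and 68 of 636 genes, and the animals inside that range alone, chosen after seeing the data, left 0 members and 27 genes. All 18 libraries called 2 members and 246 genes, and DESeq2 1056 genes. The single cerebellar call became 0 without the filter, without the sex term, with the covariate (308 of 1916 genes) and, chosen after seeing the data, without the libraries rich in *Slc17a6*, and gave between 0 and 1 with an animal left out. DESeq2 raised the members called in cKO+/- mice from 0 to 1 (95 genes against 5) and in cerebellar cKO-/- mice from 0 to 1. The tissue interaction fell from 2 members to 1 without the libraries that carry genes of another region, chosen after seeing the data. With the animal as a replicate block, the paired fits called 2 members in the interaction (*Wfs1* at -0.62, *C1ql2* at -0.99) and 8 between tissues in controls, and changed no member's call. Without the block, 1.65% of all tested genes were called in the interaction and 35.2% as higher in the control hippocampus. *Fibcd1*, *Spink8*, *C1ql2* and *Dsp* passed the filter only through the hippocampus, so that nothing is drawn from their calls in either fit. Among the named genes of other lists in the hippocampus, 75 values lost their call, 3 gained one and 197 kept their side of the threshold over these settings. No called value changed its sign under any setting run. The cause was not tested where calls were lost, and the subset of animals by number holds fewer libraries. Genes under 1 CPM in the cerebellum rest on 2 to 21 counts in controls.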
